A study of Mus musculus with 28 samples.

Results

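Cpa4, Slitrk6, Galnt14, Igsf9b, Nptx1 and Tspan8 are 6 of the 597 genes in the RNA table of hair follicle stem cells from young and old mice. They were chosen by their listed RNA increases at 24 months, which were among the largest, so their RNA values are given as a description with no test. The chromatin layers were not used to pick them. The cells were CD34-positive, α6-integrin-positive cells sorted by flow cytometry from trypsin-treated skin of mice labelled 132-C67BL/6J, with no treatment or engineered allele named in either group. Young mice were 6 months and old mice 24 months old, an age that the ChIP-seq samples take from the series design. RNA-seq covered 3 young and 3 old samples, ATAC-seq, which counts transposase insertions in open chromatin, 4 and 4, and ChIP-seq for H3K27me3 3 and 3. For each of H3K4me3 and RNA polymerase II (Pol2), 2 young and 2 old samples were profiled. All 6 genes had at least 1 H3K4me3 peak, 5 had a listed ATAC-seq peak, 4 an H3K27me3 peak and 1, Cpa4, a Pol2 peak.

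H3K4me3 is laid down at the start sites of active and poised genes, H3K27me3 is the mark of Polycomb repression, and a promoter with both is called bivalent. Bulge stem cells rest for most of the hair cycle and keep many developmental genes under Polycomb. Of the genes described here, 3 are best known from neurons. Slitrk6 encodes a leucine-rich repeat membrane protein with a part in neurite growth and synapse formation. Igsf9b encodes an immunoglobulin superfamily adhesion protein of inhibitory synapses, and Nptx1 encodes neuronal pentraxin, a secreted protein that gathers glutamate receptors. Cpa4 encodes a secreted metallocarboxypeptidase, Galnt14 an enzyme that starts mucin-type O-glycosylation, and Tspan8 a tetraspanin of the cell surface. The start sites in the authors' annotation (GRCm38) are on chromosome 6 at 30568369 for Cpa4 (ENSMUSG00000039070), on 14 at 110755149 for Slitrk6 (ENSMUSG00000045871) and on 17 at 73710451 for Galnt14 (ENSMUSG00000024064). Those of Igsf9b (ENSMUSG00000034275), Nptx1 (ENSMUSG00000025582) and Tspan8 (ENSMUSG00000034127) are on 9 at 27299228, on 11 at 119547753 and on 10 at 115817284.

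The labelled cell type was checked on the promoters of marker genes. All 14 listed bulge stem cell markers, among them Cd34, Itga6, Sox9 and Lhx2, had an H3K4me3 promoter peak and 12 had a Pol2 promoter peak. Of the 6 immune markers, Ptprc and Cd74 among them, 0 had either, of the 6 melanocyte markers 2 had an H3K4me3 and 0 a Pol2 promoter peak, and of the 5 Schwann cell and glia markers 2 and 1. Merkel cell, fibroblast, and endothelium and muscle markers each had 3 of 5 with H3K4me3 and 0 of 5 with Pol2. The lists for sebaceous cells and for inner bulge and companion layer each had 3 of 4 with H3K4me3 and 1 of 4 with Pol2, and that for interfollicular keratinocytes 3 of 6 and 0. In the RNA table the listed markers of other cell types were Cd74 (log2 fold change −1.36), Timp3 (−1.01), Acta2 (−0.69), Mbp (−0.56) and Col1a2 (−0.39) in the authors' deposited table. Cd74 and Timp3 had an adjusted p under 0.05 there and the others did not. The 1 listed bulge stem cell marker, Nfatc1, had −0.34 and was not called. All of these listed markers thus have negative values, opposite to the 6 genes, and their part in the results was not tested. In such bulk samples fewer cells of a type and less RNA per cell cannot be told apart.

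Sequences of the 250 bases before the start site are shown for the 4 genes found in RefSeq's promoter table (GRCm38.p6). The H3K4me3 values below for Cpa4, Slitrk6 and Galnt14, and the Pol2 value for Cpa4, were measured at or beside them. At Tspan8 the nearest H3K4me3 peak lay 0.993 kb upstream of the start site, outside the sequence shown. The windows are chr6:30568119-30568368 on the plus strand for Cpa4, chr14:110755150-110755399 on the minus strand for Slitrk6, chr10:115817034-115817283 on the plus strand for Tspan8 and chr17:73710452-73710701 on the minus strand for Galnt14. Each is written 5′ to 3′. Capitals mark matches to the AP-1 core TGANTCA, the TATA box core TATAAA and the GC box GGGCGG, searched on both strands and chosen after the sequences were read.
Cpa4: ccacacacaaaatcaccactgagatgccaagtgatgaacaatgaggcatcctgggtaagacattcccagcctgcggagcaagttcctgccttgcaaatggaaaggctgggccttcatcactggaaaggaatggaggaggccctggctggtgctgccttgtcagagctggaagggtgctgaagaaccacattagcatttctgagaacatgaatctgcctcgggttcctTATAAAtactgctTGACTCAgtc
Slitrk6: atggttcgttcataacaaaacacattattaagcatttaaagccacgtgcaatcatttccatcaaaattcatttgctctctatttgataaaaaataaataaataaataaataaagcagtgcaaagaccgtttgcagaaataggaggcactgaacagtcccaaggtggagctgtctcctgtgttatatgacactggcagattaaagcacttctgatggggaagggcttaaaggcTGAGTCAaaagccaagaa
Tspan8: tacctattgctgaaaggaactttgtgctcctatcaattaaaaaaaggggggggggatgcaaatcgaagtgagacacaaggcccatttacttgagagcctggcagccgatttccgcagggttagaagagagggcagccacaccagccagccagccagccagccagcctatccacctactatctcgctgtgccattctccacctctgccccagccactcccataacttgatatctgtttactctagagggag
Galnt14: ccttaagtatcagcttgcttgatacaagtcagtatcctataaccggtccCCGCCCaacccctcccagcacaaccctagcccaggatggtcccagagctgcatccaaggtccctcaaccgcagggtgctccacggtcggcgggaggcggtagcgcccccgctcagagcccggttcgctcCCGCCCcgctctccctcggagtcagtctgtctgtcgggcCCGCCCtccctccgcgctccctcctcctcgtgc
The Cpa4 window holds TATAAA from 23 to 18 bases and TGACTCA from 10 to 4 bases before the start site. The Slitrk6 window holds TGAGTCA from 18 to 12 bases before it, and the Galnt14 window holds the GC box 3 times, on the minus strand of the gene. None of these letters occur in the Tspan8 window, and no match overlaps another. Of 32851 promoters of the same length, 6.75% hold TGANTCA, 12.4% TATAAA and 32.7% GGGCGG. The Galnt14 window has 19 CpG dinucleotides and 66.4% G and C, the Tspan8 window 4 and 52.4%, the Slitrk6 window 3 and 37.2%, and the Cpa4 window 2 and 50.8%. The median over all promoters is 6 CpG dinucleotides and 52.4% G and C. A match is a description of letters and not of a bound site.

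The RNA of each gene had a higher listed value in old cells, with log2 fold changes from 0.99 to 1.21 and the sign read as old over young from the column name in the authors' deposited table. Cpa4 had a log2 fold change of 1.21 with a standard error of 0.20, at a mean normalized count of 656 over the 6 libraries in the authors' deposited table. The same authors' deposited table gives 1.16 (SE 0.18) for Slitrk6, 1.11 (SE 0.20) for Galnt14 and 1.07 (SE 0.23) for Igsf9b. It gives 1.07 (SE 0.19) for Nptx1 and 0.99 (SE 0.22) for Tspan8, again from the authors' deposited table. These 6 occupy ranks 3 to 8 of the 597 genes by listed rise, and the standard errors of the 6 overlap. Just outside the set, the authors' deposited table has Peg3 at 1.38 and Sox21 at 1.219 above it, and Hhip at 0.99 and Serpinb3b at 0.93 below it. Of all listed genes, 227 or 38% had an adjusted p under 0.05 and a higher value in old cells in the authors' deposited table. Since the RNA contrast chose the genes, nothing is read from that share. No values per library were used for RNA, so the spread of the 6 genes over samples is known only through these standard errors.

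**Figure D1:**
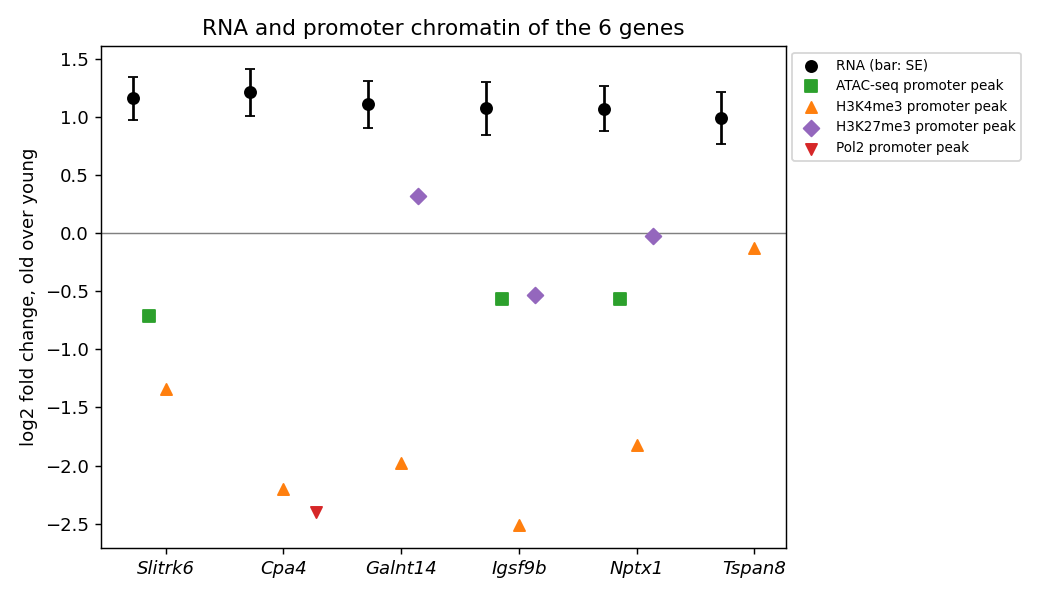
Log2 fold change, old over young, of RNA (black, bars are the deposited standard error) and of each promoter peak within 1 kb of a start site, by gene, for ATAC-seq, H3K4me3, H3K27me3 and Pol2. RNA lies near 1 for each gene, while each plotted ATAC-seq, H3K4me3 and Pol2 point lies below 0 as deposited, of which ATAC-seq at Igsf9b and Nptx1 turns with TMM scaling and H3K4me3 at Slitrk6 and Tspan8 turns when the table's median is taken off. Tspan8 is shown by its narrow 0.266 kb H3K4me3 peak only.

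At the promoters, H3K4me3 went the other way. It fell at 5 of the 6 promoter peaks within 1 kb of a start site, by the authors' deposited false discovery rate (FDR) under 0.05, against 94.3% of all 13505 promoter peaks called lower. None of the 6 rose, against 0.037% of promoter peaks called higher. The median over the 6 was −1.90, beside −1.42 over all promoter peaks, so a fall of this kind is common to the table. Levels below are the authors' log2 mean normalized read counts of 2 samples per age, which carry no error per sample.

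Igsf9b had the steepest fall of the 6, from 9.00 in young to 6.49 in old cells (chromosome 9, 27298908 to 27301057), a log2 fold change of −2.51 with an FDR of 8.4e-09 in the authors' deposited table. Only 1.74% of promoter peaks fell as much or more. Cpa4 fell from 7.74 to 5.54 (chromosome 6, 30568370 to 30569731), which the authors' deposited table gives as −2.20 with an FDR of 5.67e-06. Galnt14 fell from 10.51 to 8.54 (chromosome 17, 73708431 to 73711727), or −1.98 with an FDR of 1.84e-07 in the authors' deposited table. A second Galnt14 peak, 2.3 kb inside the gene, fell as well, from 6.12 to 4.33. Nptx1, whose 6.07 kb peak is the widest of the 6, fell from 11.56 to 9.75 (chromosome 11, 119544454 to 119550521), or −1.82 with an FDR of 7.65e-08 in the authors' deposited table. A distal Nptx1 peak 22.4 kb from the start site fell from 8.20 to 6.25 (FDR 4.66e-06 in the authors' deposited table). The promoter peaks of these 4 genes lie among the lowest 7.89% of promoter peaks by fold, and stay below 0 when the table's median of −1.37 over all 21390 peaks is taken off, at −1.14, −0.83, −0.61 and −0.45 in the order named.

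Slitrk6 and Tspan8 did not share the steeper fall. Slitrk6 fell from 7.70 to 6.36 (chromosome 14, 110754106 to 110755222), a log2 fold change of −1.34 with an FDR of 0.00367 in the authors' deposited table, and its direction turns to 0.03 when the table's median is taken off. Its fall was at the 65.8 percentile of promoter peaks, counted from the steepest fall. At Tspan8 no H3K4me3 peak covered the start site itself. The nearest, a 0.266 kb peak 0.993 kb upstream (chromosome 10, 115816026 to 115816291), had 5.41 in young and 5.28 in old cells, with a log2 fold change of −0.13 and an FDR of 0.86 in the authors' deposited table. A wider Tspan8 peak next to it, 1.4 kb upstream (115813924 to 115815899), fell from 9.26 to 8.36, or −0.90 with an FDR of 0.011 in the authors' deposited table. A distal Tspan8 peak 100.3 kb upstream fell by 1.20 with an FDR of 0.00439. All 3 Tspan8 values turn positive when the table's median is taken off, at 1.24, 0.47 and 0.17. The narrow peak was at the 98.5 percentile of promoter peaks, and only 1.87% of H3K4me3 peaks are as narrow or narrower.

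Over all H3K4me3 peaks annotated to the 6 genes, 9 of 10 fell, against 79.1% of all peaks called lower, and none rose, against 0.281%. At an unadjusted p under 0.05 the same count of 9 passed. Per length, Nptx1 had the most H3K4me3 of the 6 promoters in young cells, 498 normalized reads per kb, followed by Galnt14 with 442, Igsf9b with 238, Slitrk6 with 186, Tspan8 with 160 and Cpa4 with 157. In old cells the order was Tspan8 with 146, Nptx1 with 142, Galnt14 with 113, Slitrk6 with 73.5, Igsf9b with 41.8 and Cpa4 with 34.2 normalized reads per kb. Tspan8 is placed here by its narrow peak, which misses the start site. The wider Tspan8 peak 1.4 kb upstream had 310 in young and 166 in old cells, which would put Tspan8 above Igsf9b in young cells. Without values per sample, neighbours in these orders cannot be told apart by their spread. The median promoter peak had 476 normalized reads per kb in young and 179 in old cells, so that Nptx1 alone stood above the median in young cells and none of the 6 in old cells.

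**Figure D2:**
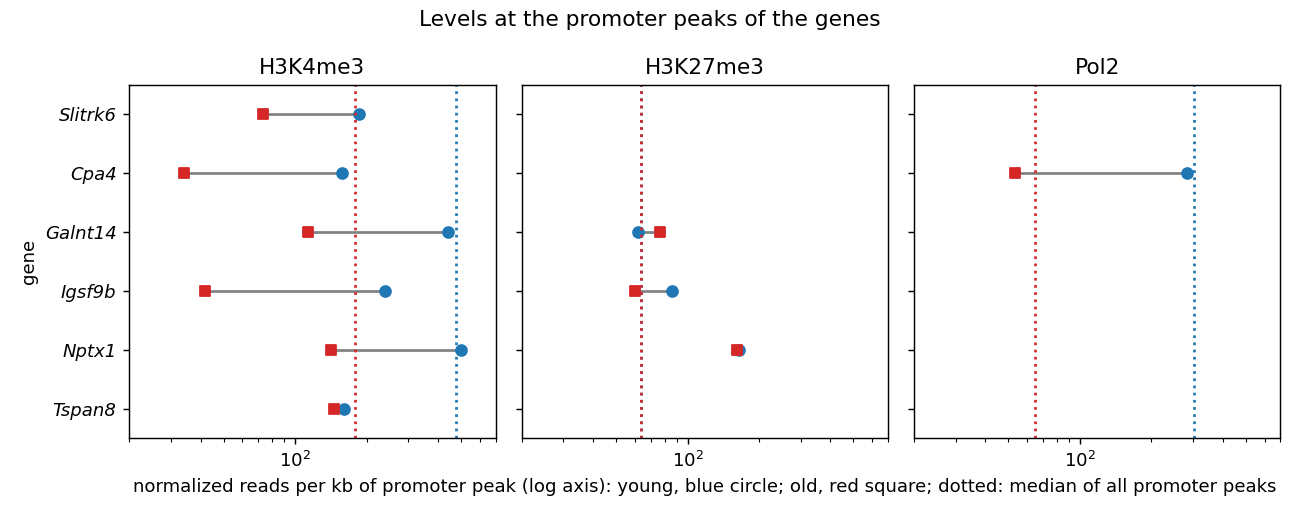
Levels in normalized reads per kb of promoter peak (log axis) in young (blue circles) and old cells (red squares) for H3K4me3, H3K27me3 and Pol2, with dotted lines at the median of all promoter peaks for each age. H3K4me3 spans 157 to 498 in young and 34.2 to 146 in old cells, and the H3K27me3 pairs lie close together. Tspan8 is shown by its narrow 0.266 kb H3K4me3 peak only.

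**Figure D3:**
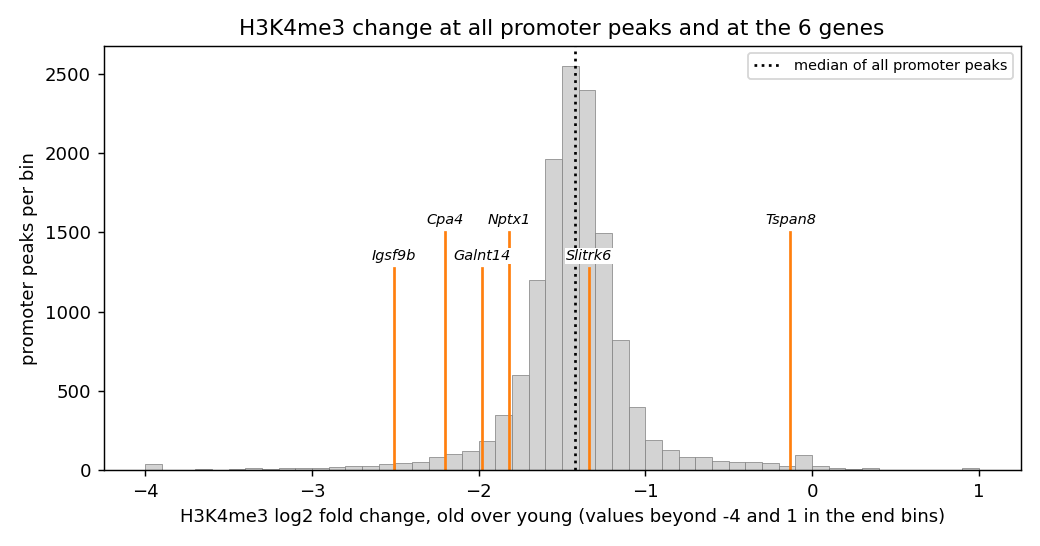
Number of promoter peaks by H3K4me3 log2 fold change, old over young, in bins of 0.1, with orange lines at the 6 genes and a dotted line at the median of −1.42. Igsf9b, Cpa4, Galnt14 and Nptx1 lie left of the bulk, Slitrk6 lies within it and Tspan8 to its right. Tspan8 is placed by its narrow 0.266 kb peak only.

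Pol2 gave a peak at the promoter of 1 gene, Cpa4. The level there fell from 6.53 in young to 4.13 in old cells (chromosome 6, 30568312 to 30568639), a log2 fold change of −2.40 with an FDR of 0.00236 in the authors' deposited table. This 0.328 kb peak covers the start site and the TATA and AP-1 letters printed above, and 270 of its bases are shared with the Cpa4 H3K4me3 peak. It is 1 peak of 1 called lower, against 52.9% of all Pol2 peaks called lower and 0.0442% higher. Of the 3743 Pol2 promoter peaks 79.1% were called lower and 0% higher, and the median was −2.28, so the Cpa4 fall is close to that of the typical promoter. It stays below 0, at −0.68, when the median of all Pol2 peaks is taken off. For Slitrk6, Galnt14, Igsf9b, Nptx1 and Tspan8 the nearest Pol2 peak lay 268 kb or more from the start site and was annotated to another gene where it had a symbol.

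Open chromatin was measured at 17 listed ATAC-seq peaks of 5 genes, 11 of them annotated to Slitrk6, 3 to Tspan8 and 1 each to Galnt14, Igsf9b and Nptx1. Cpa4 had none, and the nearest listed peak, 169.7 kb from its start site, is annotated to Mest. No peak in the authors' table has a log2 ratio under 0.50 in size or a −log10 p under 2.00, both from the same libraries. The direction and size, and the p-values and FDRs below, are thus in part fixed by the listing. The FDRs are adjusted over listed peaks only. All 17 had a lower mean count in old libraries, against 85.9% of the 7849 listed peaks. Without scaling between libraries, edgeR's quasi-likelihood test with Benjamini-Hochberg adjustment called 11 of the 17 lower, against 46.4% of listed peaks, and none higher, against 5.43%. With TMM scaling, which takes off a shift of 0.59 on the log2 scale that most listed peaks share, edgeR called 0 of 17 in either direction, against 0.701% lower and 13.9% higher, and 1 passed an unadjusted p under 0.05. DESeq2 with its own size factors called 1 lower. With TMM 15 of the 17 values were still negative, down to −0.56 at a Slitrk6 peak, and 2 were positive, so falls relative to the other listed peaks were not called. Falls named for single peaks below are in the counts as deposited.

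The Slitrk6 promoter peak (chromosome 14, 110754851 to 110755450) had 549, 358, 634 and 756 counts in the young libraries and 467, 323, 298 and 311 in the old ones. Young replicate 2 and old replicate 1 make the groups overlap. The means were 574 ± 167 and 350 ± 78.8 (SD, n = 4 each), a log2 fold change of −0.72 in edgeR without scaling (FDR 0.0284) and −0.12 with TMM (FDR 1.00). The call was lost without young replicate 3 (−0.66) or 4 (−0.55), or without old replicate 2 (−0.68), 3 (−0.65) or 4 (−0.66). The peak shares 372 bases with the Slitrk6 H3K4me3 promoter peak.

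The other 10 Slitrk6 peaks lie beyond its 3′ end, 91.4 to 863.5 kb from the start site, in sequence annotated as distal intergenic, and are assigned to Slitrk6 only as the nearest gene. Only 7 of the 4729 genes with a listed peak, Slitrk6 among them, have as many as 11, and the median is 1. The strongest by count lies 255.1 kb away (chromosome 14, 110498851 to 110500000). It had 1330, 1226, 1119 and 1594 counts in young and 866, 747, 560 and 644 in old libraries, so the groups do not overlap. Its log2 fold change was −0.90 without scaling (edgeR FDR 0.00494) and −0.31 with TMM (FDR 0.336). The steepest fall among the Slitrk6 peaks was 511.1 kb away (110243501 to 110244050), where young libraries had 427, 349, 392 and 414 counts and old ones 188, 191, 170 and 163. There the log2 fold change was −1.15 without scaling (edgeR FDR 0.00585) and −0.56 with TMM (FDR 0.110). At the peak 603.2 kb away the young libraries were nearly equal, with 586, 597, 599 and 603 counts, and the old ones had 430, 340, 279 and 278. In all, 6 of the 10 distal peaks and 7 of the 11 Slitrk6 peaks were called lower without scaling. The other 3 distal peaks called lay 91.4 kb (−1.12), 653.7 kb (−1.13) and 863.5 kb (−1.09) away, and at the last of them the groups overlap. The call 863.5 kb away was kept without young replicate 2 or old replicate 2 and lost without any other library (−0.88 to −1.13). The 4 distal peaks not called, whose groups also overlap, lay 227.3 kb (−0.62, FDR 0.0503), 295.5 kb (−0.61, FDR 0.106), 626.5 kb (−0.60, FDR 0.106) and 634.0 kb (−0.62, FDR 0.0644) away, by edgeR without scaling. Of these, the peak 227.3 kb away was called without young replicate 2 (−0.79) or old replicate 1 (−0.73), and the one 634.0 kb away without old replicate 1 (−0.91). No H3K4me3, H3K27me3 or Pol2 peak overlapped any of these 10 distal peaks.

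At Igsf9b the promoter peak (chromosome 9, 27298851 to 27299700) had 1391, 1157, 1189 and 1368 counts in young and 925, 807, 921 and 788 in old libraries. The groups are apart, with means of 1276 ± 120.3 and 860 ± 72.9 (SD, n = 4 each). The log2 fold change was −0.57 without scaling (edgeR FDR 0.0158), and its direction turns to 0.02 with TMM (FDR 1.00). At Nptx1 the promoter peak (chromosome 11, 119547451 to 119548200) had 272, 497, 505 and 453 counts in young and 376, 271, 248 and 268 in old libraries. Here young replicate 1 lies within the old range, and the value of −0.57 missed the threshold (edgeR FDR 0.0511 without scaling), with a direction that turns to 0.02 with TMM. Without young replicate 1 (−0.74) or old replicate 1 (−0.72) the Nptx1 peak was called. Both promoter peaks lie wholly inside H3K27me3 peaks, and the H3K4me3 peak of the same gene covers 93.3% of the Igsf9b and 100% of the Nptx1 peak.

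Galnt14 had 1 listed peak, in intron 13 of 14 (chromosome 17, 73557451 to 73557900), 152.6 kb from the start site. Young libraries had 208, 243, 182 and 392 counts and old ones 145, 109, 144 and 101, which do not overlap. Its log2 fold change of −1.04 (edgeR FDR 0.0189 without scaling, 0.588 with TMM) shrinks to −0.76 and is no longer called without young replicate 4, the highest library. Of the 3 Tspan8 peaks, all upstream, the one 100.5 kb away (chromosome 10, 115716051 to 115716800) had 632, 654, 569 and 767 counts in young and 449, 351, 429 and 355 in old libraries. It fell by 0.73 without scaling (edgeR FDR 0.0146), had −0.13 with TMM, and lies wholly inside the distal Tspan8 H3K4me3 peak described above. The Tspan8 peak 38.3 kb away fell as well (−0.88, edgeR FDR 0.0456 without scaling), a call kept only without young replicate 1 and lost without any other library (−0.74 to −0.99), and the one 74.1 kb away had −0.70 with an FDR of 0.0714, called without old replicate 1 (−0.96). Over all 17 peaks, 9 had every young library above every old one, against 35.8% of listed peaks, and each of these had an exact permutation p of 0.0286, two-sided and unadjusted, the smallest that 4 against 4 samples allow. As the peaks were listed by the same libraries, this p is a description and no separate support.

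**Figure D4:**
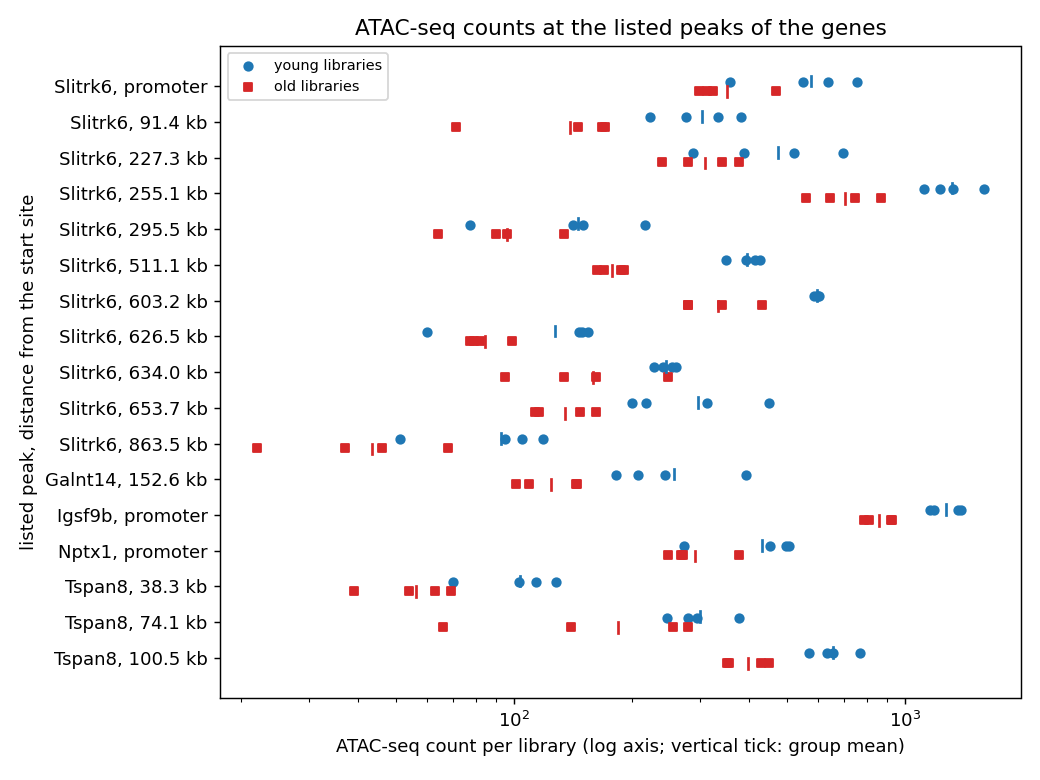
ATAC-seq count per library (log axis) at the 17 listed peaks, in young (blue circles) and old libraries (red squares), with vertical ticks at group means, ordered by gene and distance from the start site. The groups are apart at 9 peaks and overlap at the others, such as the Slitrk6 and Nptx1 promoters.

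H3K27me3 divided the 6 genes. Slitrk6 and Cpa4 had no annotated peak, and the nearest lay 919 kb and 16.4 kb from their start sites. Tspan8 had 3 small peaks of under 1 kb, the nearest 18.7 kb from the start site, and none called (−1.19, 0.62 and −0.73). The promoters of Galnt14, Igsf9b and Nptx1 overlapped H3K27me3 and H3K4me3 together, which makes 3 of 6 bivalent by an overlap of at least 1 bp, and 2 of 6, Igsf9b and Nptx1, if H3K27me3 must cover 50% of the H3K4me3 peak. No share over all promoters stands beside these counts, so they are not read as a trait of the 6 genes.

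The Nptx1 domain was 29.1 kb wide (chromosome 11, 119542956 to 119572005), wider than 99.3% of H3K27me3 peaks, and covered the whole H3K4me3 peak. Its level was 12.23 in young and 12.20 in old cells, a log2 fold change of −0.03 with an FDR of 0.938 in the authors' deposited table. Per length it held 165 normalized reads per kb in young and 162 in old cells, beside a median of 63.6 and 63.5 at all promoter peaks. The other 3 Nptx1 peaks, 5.4, 6.2 and 19.1 kb from the start site toward and past the 3′ end, had 0.69, −0.60 and −0.89, and none was called. Igsf9b had a 14.01 kb domain (chromosome 9, 27294751 to 27308756) that also covered its whole H3K4me3 peak. There the level was 10.24 in young and 9.72 in old cells, and the log2 fold change of −0.53 missed the threshold (FDR 0.0776 in the authors' deposited table). At Galnt14 a 6.13 kb peak (chromosome 17, 73710847 to 73716976) began 0.396 kb upstream of the start site and shared 881 bases, 26.7%, with the H3K4me3 peak. Its level was 8.56 in young and 8.88 in old cells, or 0.32 with an FDR of 0.407 in the authors' deposited table. None of the 3 promoter peaks was called, against 9.19% lower and 3.14% higher of all promoter peaks, and 1 of them, Igsf9b, had an unadjusted p under 0.05 in DiffBind's test (0.00532).

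Around the promoters, the peaks of 2 genes leaned in opposite directions. Of 16 H3K27me3 peaks annotated to Galnt14, from 45.4 kb upstream to 26.1 kb inside the gene, 13 had a higher and 3 a lower level in old cells, with a median of 0.64. One of them was called, in intron 1 of 14 and 13.1 kb from the start site (chromosome 17, 73696439 to 73697357), where the level rose from 2.56 to 5.80. That is a log2 fold change of 3.24 with an FDR of 0.00969 in the authors' deposited table, at a peak of 0.919 kb with a low young level. Of 9 peaks annotated to Igsf9b, 8 had a lower and 1 a higher level in old cells, with a median of −0.53 and none called. Neighbouring peaks share a domain and libraries and are no replicates of each other. Of all 67985 peaks 28338 had a lower level in old cells, and of the 32 peaks here 16 had. The median over all peaks was 0.12, and no direction of the 32 peaks turned when this median was taken off. Over the 32 peaks 1 was called higher and 0 lower by DiffBind, against 2.66% and 2.6% of all peaks, a share near the background, and 6 had an unadjusted p under 0.05.

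**Figure D5:**
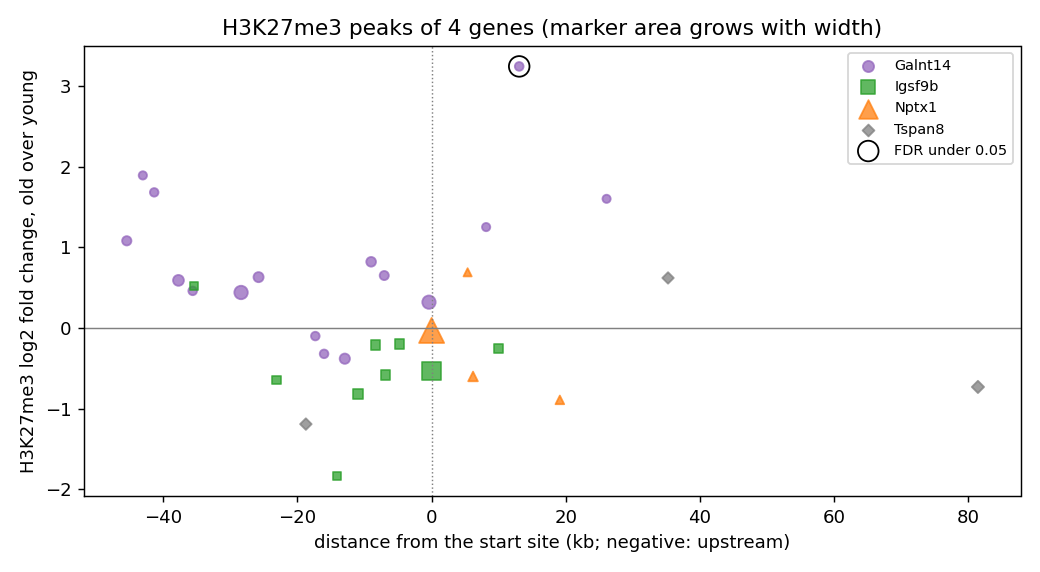
H3K27me3 log2 fold change, old over young, of each of the 32 peaks annotated to Galnt14, Igsf9b, Nptx1 and Tspan8, by distance from the start site in kb, with marker area growing with peak width and a ring around the 1 called peak. Galnt14 points lie mostly above 0 and Igsf9b points mostly below it.

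The chromatin of the 6 was set beside that of other genes with higher RNA as a description only. Of the 221 other genes called higher in the authors' RNA table, 172 had an H3K4me3 promoter peak, and all 172 had a lower level in old cells. Their median was −1.42, beside −1.90 for the 6. Of all 13505 H3K4me3 promoter peaks 13407 had a lower level in old cells. Among genes called lower in RNA, the 78 with such a peak were all lower too, with a median of −1.40. Pol2 was measured at 87 promoters of the 221, of which 86 were lower, with a median of −2.05. Of all 3743 Pol2 promoter peaks 3657 were lower, so these counts are common to the promoters measured. An H3K27me3 promoter peak was present at 16 of the 221 and at 16 of the 112 genes called lower in RNA, against 3 of the 6 here. No share over all genes stands beside these counts, so they are not read as a trait of the 6 genes. These medians and shares were not tested because the 6 were picked with results known.

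The genes listed in RNA with the most similar values were found by the Euclidean distance over the log2 fold changes of RNA and of those promoter marks that a gene had. For Igsf9b, over RNA, H3K27me3 and H3K4me3 and among 54 genes, the nearest were Sox21 (distance 0.36), a transcription factor of the hair lineage, Hhip (0.44), a Hedgehog inhibitor, and Ntrk2 (0.57), a neurotrophin receptor. Nptx1 had Kcnn3 (0.26), a potassium channel gene, Galnt14 (0.39) and Mns1 (0.45) nearest. Galnt14 in turn had Nptx1 (0.39), Kcnn3 (0.39) and Tnc (0.49), which encodes tenascin C. Cpa4, over RNA, H3K4me3 and Pol2 and among 158 genes, had Peg3 (0.71), Tnc (0.73) and Klf10 (0.78). For Slitrk6 and Tspan8 the distance rests on RNA and H3K4me3 among 442 genes. Tspan8 enters by its narrow 0.266 kb peak alone (−0.13), which misses the start site and was not called. The wider Tspan8 peak 1.4 kb upstream (−0.90) is left out, so the Tspan8 order depends on that choice of peak. Slitrk6 had Mns1 (0.30), Ndufs6 (0.35) and Fam78b (0.36), and Tspan8 had Tex30 (0.47), Hpgd (0.64) and Rnf7 (0.76). The genes described here were chosen by their RNA rise, and RNA enters every distance. That other genes with a large RNA rise lie near them is thus in part fixed by the choice. With 2 or 3 layers these distances describe likeness only.

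Few relatives of the 6 genes are in the RNA table, which lists no gene with an adjusted p above 0.1, so a gene outside it has no value here. Of the 5 relatives listed, Ntrk2 was called higher and the other 4 had negative values, of which Aebp1 alone was called lower. Among 6 Slitrk, 19 GalNAc transferase and 7 pentraxin genes, Slitrk6, Galnt14 and Nptx1 are the only ones listed. Of 18 metallocarboxypeptidases Aebp1 is listed beside Cpa4, at −0.49 (SE 0.14) and with an adjusted p under 0.05 in the authors' deposited table. Of 32 tetraspanins Tspan18 is listed beside Tspan8, at −0.61 (SE 0.20), and of 12 synaptic immunoglobulin proteins Sdk2 beside Igsf9b, at −0.36 (SE 0.12), in the authors' deposited table, neither with an adjusted p under 0.05. Among 21 synaptic partners and organizers, Ntrk2, the receptor of brain-derived neurotrophic factor, had 0.66 (SE 0.19) and was called higher, and Nlgn1, a neuroligin, had −0.70 (SE 0.23) and was not called, in the authors' deposited table.

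On chromatin H3K4me3 was lower across the lists, the 6 genes included, as it was at 94.3% of all promoter peaks. In the lists, a gene counts as called if any of its promoter peaks was called. The shares over all promoter peaks count peaks, so they are an unlike measure. H3K4me3 fell at the promoters of 2 of 2 Slitrk genes with a peak, 6 of 6 metallocarboxypeptidases, 11 of 11 GalNAc transferases, 8 of 9 synaptic immunoglobulin genes, 2 of 2 pentraxins, 18 of 19 tetraspanins and 7 of 7 synaptic partners, with none called higher. Their medians ran from −1.80 for the Slitrk genes and −1.71 for the synaptic immunoglobulin genes to −1.29 for the GalNAc transferases, beside −1.42 over all promoter peaks. Among the falls were Slitrk5 (−2.26), the adhesion gene Dscaml1 (−3.17), Cadm4 (−2.15), Galnt12 (−1.85), Nptxr (−1.23), the neuronal pentraxin receptor, and Tspan15 (−2.38) in the authors' deposited table. Of all H3K27me3 promoter peaks 9.19% were called lower and 3.14% higher. Such peaks were present at 2 Slitrk genes, of which Slitrk3 fell (−1.20, FDR 0.0116 in the authors' deposited table), and at 7 GalNAc transferases, of which none was called at that threshold. It fell at 1 of 5 pentraxins, Nptxr (−0.86), at 2 of 9 synaptic immunoglobulin genes, Sdk1 (−1.09) and Dscam (−0.93), and at 4 of 9 synaptic partners, among them Ntrk2 (−1.04) and Lrrtm1 (−0.85), in the authors' deposited table. Of 9 tetraspanins with such a peak 2 fell, Tspan12 (−0.92) and Tspan11 (−0.44), and 1, Tspan32, rose (4.62), in the authors' deposited table. Tspan32 rose from a low young level of 1.53, beside a median of 7.42 over all H3K27me3 promoter peaks. Of 8 metallocarboxypeptidases 1 rose, Cpxm1, from the lowest young level of any peak, again by the authors' deposited table. Pol2 fell at every gene of these lists with a promoter peak except 1 tetraspanin, beside 79.1% of all Pol2 promoter peaks.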

How the data were processed

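RNA was read from the authors' deposited table of 1 comparison, made with STAR 2.5.2b, featureCounts and DESeq2 1.22.2 on GRCm38.p5 per the submitters' processing notes. Per the file headers it holds a mean normalized signal, log2 fold changes and their standard errors, a Wald score and p-values. The deposited ATAC-seq table holds counts per peak and library (BWA 0.7.12 and GRCm38 in the submitters' processing notes), with the authors' log2 ratio and −log10 p. Counts over listed peaks totalled 2456110 to 2773284 per young and 1572998 to 1946804 per old library. These are not depths. ChIP-seq tables (BWA 0.7.15, MACS2 2.2.7.1, DiffBind 2.14.0, GRCm38, per the submitters' processing notes) give log2 mean normalized counts per age, p-values and FDRs of the authors on 1 merged peak set. How DiffBind was set, and any scaling of ATAC-seq counts, were not given in the sources used here.

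ATAC-seq peaks were tested with edgeR 4.0.16 (R 4.3.3, quasi-likelihood, equal library sizes, all 7849 peaks, Benjamini-Hochberg, threshold 0.05), tested on simulated data, with DESeq2 1.42.0 as an alternative. The simulated data held no shift shared by most peaks, so they cannot decide between scaling and no scaling. Ratios of young to old were turned to old over young. Promoter peaks are those annotated within 1 kb of a start site. No 2 ATAC-seq libraries agreed within sampling noise (lowest chi-square per degree of freedom 10.8). All peaks annotated to the 6 genes were counted, and those that the comparisons turn on are given with values. From lists of relatives, up to 3 called genes per list with the largest change were eligible to be named, and the 3 nearest genes by pattern. The genes and lists were chosen with earlier results of these data known. Python 3.11.15, pandas 2.3.3 and matplotlib 3.10.9 were used.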

Additional observations from a re-analysis of the deposited data

Results flagged for a closer look

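Of 34 groups of 4 ATAC-seq libraries at the peaks of the 6 genes, 2 held a library far from the other 3, and chance alone gives about 1 in 20. At the Slitrk6 peak 626.5 kb from the start site, young replicate 2 had 60 counts, beside 149, 155 and 147 in the other young libraries. At the Slitrk6 promoter, old replicate 1 had 467 counts, beside 323, 298 and 311 in the other old libraries.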

How the results depend on the processing

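The 11 ATAC-seq peaks called lower of 17 became 0 with TMM scaling, 1 with DESeq2 and its own size factors, and 2 at an FDR under 0.01. With the replicate number as a block 7 were called. Same-numbered young and old libraries had correlations from −0.19 to 0.04 over peaks, and not every library correlated best with its own number. With 4 libraries per age, these correlations cannot decide whether same-numbered libraries are paired. DESeq2 with size factors of 1 called 13, the low-count filter left 11, and the exact permutation test passed 9. Leaving out 1 library at a time gave 7 to 13 calls, with 7 without young replicate 4. The promoter values of Igsf9b and Nptx1 turned positive with TMM (0.0230 and 0.0161) and with DESeq2's own size factors (0.0125 and 0.00706). For H3K27me3, 2 peaks were called at an FDR under 0.1 and 0 when counting promoter peaks only, beside 1 as reported. For H3K4me3, 5 were called among promoter peaks only, because fewer peaks are counted. Taking off the table's median, chosen after seeing the data, turned the H3K4me3 values of Slitrk6 (0.03) and of the 3 Tspan8 peaks (0.17, 0.47 and 1.24), and turned none of the 32 H3K27me3 values nor the Pol2 value. The cause of these changes was not tested. Pol2, and the 3 bivalent promoters with a window of 3 kb, gave the same counts under each alternative run. The ChIP-seq and RNA tables give no values per library, so no sample could be left out there.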
